A study of Mus musculus with 16 samples.

Results

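The CC chemokine ligands described here are 10 genes, Ccl2, Ccl3, Ccl4, Ccl5, Ccl6, Ccl7, Ccl8, Ccl9, Ccl11 and Ccl12, chosen by symbol from a table of 49568 genes in which all 10 were found. They were followed in RNA-seq of mouse flexor tendon from C57BL/6J (C57) and MRL/MpJ (MRL) mice, an inbred strain studied for its unusual healing, with 4 libraries in each of 4 groups: C57 uninjured, C57 injured, MRL uninjured and MRL injured. The injured tendons had been cut through part of their width, at the deep flexor tendon of a hind-paw digit, and were taken at 7 days post-injury (dpi), whereas the uninjured tendons were not cut. The animals were young adult males bred in-house. Each library came from a single tendon, and the surrounding sheath and peritendinous tissue was kept with it, so transcripts of every cell type in that tissue were counted together. The injured libraries are named by their titles, and their values are listed in number order: BI-181, then BI-183 and BI-184, then BI-185 in C57, and BI-270, then BI-272 and BI-274, then BI-275 in MRL, and the uninjured libraries carry replicate numbers 1 to 4.

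CC chemokines are small secreted proteins that bind G protein-coupled CC receptors on leukocytes and draw those cells along a concentration gradient. Ccl2, Ccl7 and Ccl12 act through Ccr2 and draw monocytes out of blood, Ccl6 and Ccl9 act through Ccr1 on myeloid cells, Ccl3 and Ccl5 act in part through Ccr1 and draw macrophages and T cells, as does Ccl4, and Ccl11 (eotaxin) acts through Ccr3 on eosinophils. Ccl8 is a further monocyte chemoattractant of the same family. In healing tissue these ligands are made by macrophages, fibroblasts, endothelial cells and other resident cells.

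The family takes its name from a pair of adjacent cysteines near the start of the mature protein. The stretches below, read from the GRCm38 genome and printed 5′ to 3′ along the coding strand, hold that pair of codons in capitals for 9 members, and are shown because the pair is what makes these genes one family. Each stretch lies inside a coding exon, which is exon 2 of 3 in 7 members and exon 3 of 4 in Ccl6 and Ccl9.
Ccl2, chr11:82036491-82036526, + strand: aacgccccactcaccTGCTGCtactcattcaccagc
Ccl7, chr11:82046523-82046558, + strand: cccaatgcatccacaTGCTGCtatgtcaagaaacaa
Ccl11, chr11:82061681-82061716, + strand: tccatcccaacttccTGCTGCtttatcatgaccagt
Ccl12, chr11:82102619-82102654, + strand: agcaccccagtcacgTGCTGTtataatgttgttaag
Ccl8, chr11:82116041-82116076, + strand: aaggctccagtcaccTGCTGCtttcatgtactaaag
Ccl5, chr11:83529227-83529262, - strand: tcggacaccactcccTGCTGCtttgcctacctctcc
Ccl9, chr11:83575911-83575946, - strand: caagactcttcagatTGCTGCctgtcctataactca
Ccl6, chr11:83589371-83589406, - strand: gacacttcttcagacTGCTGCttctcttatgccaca
Ccl4, chr11:83663467-83663502, + strand: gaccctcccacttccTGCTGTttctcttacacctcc

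All 10 genes lie on chromosome 11 in 2 clusters of 5. The first, chr11:82035571-82116799, holds Ccl2, Ccl7, Ccl11, Ccl12 and Ccl8, all on the + strand. The second, chr11:83525778-83664683, holds Ccl5, Ccl9, Ccl6 and Ccl3 on the - strand and Ccl4 on the + strand. None of the 45 pairs of members shared an identical run of 100 bases in their transcripts, the length of a read, so whole reads of one member do not match another exactly. Ccl2 lies within the span of Gm17268 and Ccl6 within that of E230016K23Rik, both on the opposite strand. Gm17268 had a count of 0 in all 16 libraries. E230016K23Rik had between 16 and 37 counts in the C57 injured libraries and between 0 and 4 in the MRL injured libraries, against 2031 to 3930 and 959 to 2686 for Ccl6. These overlaps are of whole gene spans, and the exons were not compared. The strand setting of the counting is not given in the sources used here, and whether reads of these genes were mixed was not tested.

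RefSeq promoters (GRCm38.p6) were at hand for 5 members, Ccl3, Ccl6, Ccl8, Ccl9 and Ccl12. The 80 bases before the start of the neighbours Ccl8 and Ccl12 are printed because these carried the core promoter letters TATAAA, in capitals, at the usual distance from the start, at position -32 in Ccl8 and -31 in Ccl12.
Ccl8, chr11:82115105-82115184, + strand: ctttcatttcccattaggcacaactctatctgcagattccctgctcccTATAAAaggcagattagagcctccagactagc
Ccl12, chr11:82101765-82101844, + strand: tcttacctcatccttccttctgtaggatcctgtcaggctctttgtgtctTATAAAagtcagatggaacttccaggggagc
TATAAA was searched on both strands of the 250 bases before the start and occurred in 13% of 27025 mouse promoters. It also occurred in Ccl9, at -224, -94 and -92, with the matches at -94 and -92 overlapping, and not in Ccl3 or Ccl6. The AP-1 letters TGANTCA matched only in Ccl9, at -53 (6.87% of promoters), and an NF-kB-like pattern, GGG and CC with any 5 bases between, only in Ccl9, at -35 (45.4% of promoters). The GAS-like letters TTCNNNGAA (7.18% of promoters) and a STAT6-like pattern, TTC and GAA with any 4 bases between (5.86%), matched in none of the 5.

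The libraries held between 12552424 and 23741648 counts, with the MRL injured libraries the deepest at 18524170 or more. Levels are given below as CPM (read counts scaled to a common library total) after TMM scaling, and a count of 0 allows up to 3 counts, or 0.126 to 0.241 CPM depending on the library, for counting error only. Tenocyte markers (Scx, Tnmd, Mkx, Fmod, Thbs4, Col1a1, Col1a2, Egr1 and Comp) were present in every group, with summed levels between 16416 and 74683 CPM. Libraries with markers of neighbouring tissue stood apart. C57 uninjured replicate 4 held 66535 CPM of 12 epidermal markers against 16.8 to 586 in the other 15 libraries, and BI-181 held 68010 CPM of 12 skeletal muscle markers and BI-183 held 1970, against 5.48 to 20.04 in the other 14. In C57 uninjured replicate 4 the counts of Ccl2, Ccl4, Ccl5, Ccl7 and Ccl12 were all 0, and member and list results that turn on it are given with and without it.

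Uninjured tendon held little of the family. The summed level of the 10 genes was 55.6 ± 19.2 CPM (SD, n = 4) in C57 and 49.4 ± 20.3 CPM (SD, n = 4) in MRL uninjured tendon. At 7 dpi it was 684 ± 266 CPM in C57 and 828 ± 362 CPM in MRL (SD, n = 4 each). The lowest injured library of either strain, BI-181 with 496 CPM, lay above the highest uninjured library, C57 uninjured replicate 3 with 80.7 CPM.

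**Figure D1:**
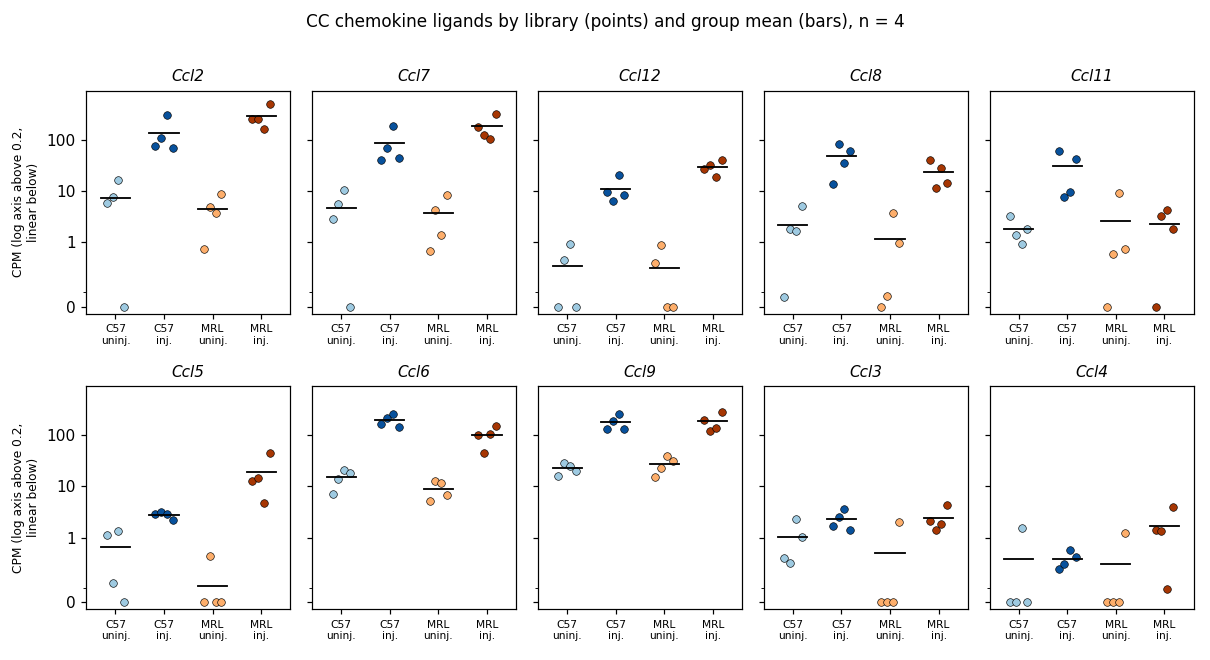
Level of each CC chemokine ligand in each library in CPM, on an axis that is logarithmic above 0.2 and linear below; points are libraries, bars are group means, n = 4 per group. Ccl2, Ccl5, Ccl6, Ccl7, Ccl8, Ccl9 and Ccl12 separate injured from uninjured tendon in both strains, Ccl5 is higher in every MRL injured library than in any C57 injured library, and Ccl11 is lower in every MRL injured library than in any C57 injured library.

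The first comparisons asked how injury changed each strain's tendon, with a gene called when the edgeR quasi-likelihood test gave an adjusted p (Benjamini-Hochberg over all genes tested) under 0.05 and the log2 fold change was over 1 in size. In C57 tendon 9 of the 10 members passed the filter on low counts and 2 were called higher, Ccl6 and Ccl9, with none lower, while 0.908% of the 14424 genes tested were called higher and 0.166% lower. In MRL tendon all 10 members passed the filter and 7 were called higher, Ccl2, Ccl5, Ccl6, Ccl7, Ccl8, Ccl9 and Ccl12, with none lower, against 5.25% of 14274 genes called higher and 2.15% lower. The median log2 fold change of the members tested was 4.01 in C57 and 3.88 in MRL, and that of all genes tested -0.05 and -0.03. By range alone, 8 of the 10 members in C57 and 7 of the 10 in MRL were higher in every injured library than in every uninjured library of the strain, as were 7.42% and 13.5% of the genes tested.

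The smaller number of calls in C57 turned on 1 library. Without C57 uninjured replicate 4, 7 members were called higher in C57 tendon, with Ccl2, Ccl7, Ccl8, Ccl11 and Ccl12 added, and the calls over all genes went from 155 to 750. Leaving out any of the other 7 C57 libraries gave the same 2 members, and DESeq2 on all 8 libraries called 7. In bulk tissue, fewer cells of a type and less RNA per cell cannot be told apart, which holds for every level given here.

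**Figure D2:**
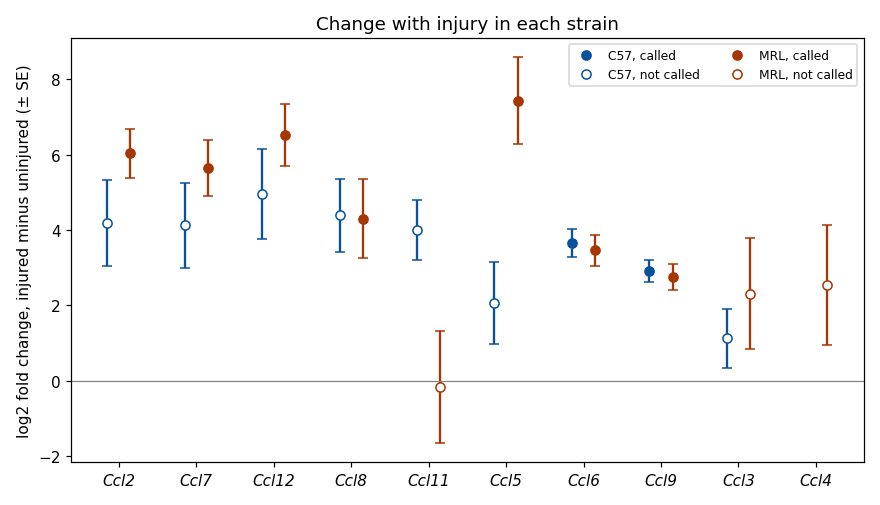
Log2 fold change (injured minus uninjured) of each member in C57 and MRL tendon, with its standard error; filled points passed the test and open points did not, and Ccl4 was not tested in C57. Only Ccl11 in MRL tendon lies below 0, at -0.17.

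Ccl2, the main monocyte chemoattractant, had 5.77, 7.58, 15.97 and 0 CPM in C57 uninjured replicates 1 to 4. In the C57 injured libraries it had 75.8, 108, 294 and 68.9 CPM. All 4 injured libraries were above all uninjured ones, with BI-184 far above the others. In MRL uninjured replicates 1 to 4 it had 0.729, 4.76, 3.64 and 8.76 CPM, and in the MRL injured libraries it had 251, 246, 161 and 494 CPM. Again the groups did not overlap. The log2 fold change was 6.03 ± 0.65 (SE) in MRL (edgeR adjusted p = 0.00119). In C57 it was 4.18 ± 1.15 (SE) with an edgeR adjusted p of 0.149, and 3.76 with an adjusted p of 0.0221 without C57 uninjured replicate 4.

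Ccl7, its neighbour in the genome and another Ccr2 ligand, was also higher in injured than in uninjured tendon of both strains. Its range was 0 to 10.6 CPM in C57 uninjured, 39.8 to 187 in C57 injured, 0.663 to 8.44 in MRL uninjured and 101 to 315 in MRL injured tendon. The lowest injured library of each strain was above its highest uninjured one. It rose in MRL by 5.64 ± 0.75 on the log2 scale (SE, edgeR adjusted p = 0.00284). In C57 the value was 4.12 ± 1.13 (edgeR adjusted p = 0.147), and 3.70 (adjusted p = 0.0322) without C57 uninjured replicate 4.

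Ccl12, the third Ccr2 ligand, was close to absent before injury, with 0 to 12 counts in each of the 8 uninjured libraries. It had 9.54, 6.35, 20.1 and 8.37 CPM in the C57 injured libraries and 27.1, 32.1, 18.7 and 39.2 CPM in the MRL injured libraries. Each injured library was above 6 CPM and each uninjured one below 1 CPM. The log2 fold change was 6.52 ± 0.83 (SE) in MRL (edgeR adjusted p = 0.00184) and 4.96 ± 1.197 in C57 (edgeR adjusted p = 0.0922), where it was 4.55 with an adjusted p of 0.0261 without C57 uninjured replicate 4. With 2 of 4 uninjured libraries of each strain at 0, the size of these fold changes depends on the prior count of the fit.

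Ccl8, a monocyte chemoattractant at the end of the same cluster, had 0.0672, 1.81, 1.62 and 5.04 CPM in C57 uninjured replicates 1 to 4 and 13.8, 80.7, 35.0 and 60.2 CPM in the C57 injured libraries. In MRL uninjured replicates 1 to 4 it had 0, 0.0721, 3.64 and 0.964 CPM, and in the MRL injured libraries it had 39.3, 11.5, 28.5 and 14.0 CPM. Injured and uninjured libraries did not overlap in either strain, and within injured tendon the libraries highest in Ccl2 (BI-184 and BI-275) were not the highest in Ccl8. The log2 fold change was 4.29 ± 1.05 (SE) in MRL (edgeR adjusted p = 0.0274) and 4.39 ± 0.96 in C57 (edgeR adjusted p = 0.0665; 5.29 and 0.0233 without C57 uninjured replicate 4). The MRL call was lost without BI-270, BI-275, MRL uninjured replicate 2 or MRL uninjured replicate 4, and without a filter on low counts.

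Ccl11, the eotaxin, was the only member with fold changes of opposite sign in the strains. In C57 it had 3.22, 1.36, 0.926 and 1.79 CPM in uninjured replicates 1 to 4 and 60.5, 7.70, 9.47 and 41.8 CPM in the C57 injured libraries. Every C57 injured library was above every C57 uninjured one, with the highest value in BI-181, the library with muscle markers. The log2 fold change in C57 was 4.01 ± 0.79 (SE, edgeR adjusted p = 0.0528); it was 4.01 (adjusted p = 0.0466) without C57 uninjured replicate 4, and 3.41 (adjusted p = 0.0300) without that library and BI-181. With total-count scaling of all 8 libraries it was 4.09 (adjusted p = 0.0468).

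In MRL tendon Ccl11 had 0, 0.577, 9.07 and 0.723 CPM in uninjured replicates 1 to 4 and 0, 3.17, 4.23 and 1.84 CPM in the MRL injured libraries. The groups overlapped, and the highest value of all 8 libraries was in an uninjured one. The log2 fold change was -0.17 ± 1.48 (SE, edgeR adjusted p = 0.955), and its sign turned without MRL uninjured replicate 3, to 2.40 (adjusted p = 0.412), and without BI-270, to 0.23 (adjusted p = 0.936).

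Ccl6 and Ccl9, the Ccr1 ligands expressed mainly by myeloid cells, were the only members called in both strains. Ccl6 had 6.92, 13.5, 20.7 and 18.1 CPM in C57 uninjured replicates 1 to 4 and 163, 213, 255 and 144 CPM in the C57 injured libraries. It had 5.04, 12.5, 11.8 and 6.67 CPM in MRL uninjured replicates 1 to 4 and 98.0, 43.5, 103 and 150 CPM in the MRL injured libraries. No injured library overlapped an uninjured one. Ccl6 rose by 3.66 ± 0.37 (log2 fold change, SE) in C57 (edgeR adjusted p = 0.00749) and by 3.46 ± 0.42 in MRL (edgeR adjusted p = 0.00158).

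Ccl9 was the member with the most counts before injury, at 22.4 ± 5.60 CPM in C57 and 27.2 ± 10.4 CPM in MRL (SD, n = 4 each). Its range was 16.1 to 28.9 CPM in C57 uninjured and 128 to 255 in C57 injured tendon, and 15.4 to 39.2 in MRL uninjured and 118 to 280 in MRL injured tendon. It rose by 2.92 ± 0.29 in C57 (log2 fold change, SE, edgeR adjusted p = 0.00749) and by 2.76 ± 0.35 in MRL (edgeR adjusted p = 0.00184), and the groups did not overlap in either strain. Both Ccl6 and Ccl9 kept their calls in C57 and MRL under every alternative run.

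Ccl5 (RANTES), a ligand of Ccr1 that T cells and macrophages release, had 1.14, 0.130, 1.31 and 0 CPM in C57 uninjured replicates 1 to 4 and 2.88, 3.14, 2.85 and 2.20 CPM in the C57 injured libraries. The C57 groups were close but did not overlap. In MRL the counts were 0, 6, 0 and 0 in uninjured replicates 1 to 4 and 305, 315, 107 and 800 in the MRL injured libraries, or 12.8, 14.3, 4.72 and 44.5 CPM in the injured libraries. The log2 fold change was 7.43 ± 1.15 (SE) in MRL (edgeR adjusted p = 0.00422), a size that depends on the prior count because 3 of the 4 uninjured libraries were at 0. In C57 it was 2.06 ± 1.09 (SE, edgeR adjusted p = 0.403), and 1.65 (adjusted p = 0.273) without C57 uninjured replicate 4.

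Ccl3 and Ccl4, inflammatory chemokines released early by activated macrophages, stayed at low counts. Ccl3 had 5 to 30 counts in the C57 uninjured, 20 to 56 in the C57 injured and 31 to 79 in the MRL injured libraries. In MRL uninjured tendon it had 25 counts in replicate 4 and 0 in the other 3. The ranges overlapped in both strains, with log2 fold changes of 1.13 ± 0.79 in C57 (SE, edgeR adjusted p = 0.540) and 2.31 ± 1.48 in MRL (edgeR adjusted p = 0.339). Without MRL uninjured replicate 4, which left 3 uninjured libraries at 0, Ccl3 was called in MRL.

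Ccl4 was at 0 in 3 of 4 uninjured libraries of each strain, with 20 counts in C57 uninjured replicate 3 and 15 in MRL uninjured replicate 4. It had 4, 5, 9 and 6 counts in the C57 injured libraries and 34, 30, 2 and 71 in the MRL injured libraries. It did not pass the filter on low counts in C57. In MRL the groups overlapped and the log2 fold change was 2.53 ± 1.59 (SE, edgeR adjusted p = 0.331).

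The next comparison asked how the strains differed at 7 dpi. All 10 members passed the filter and 1 was called, Ccl5, higher in MRL; 1.55% of the 14626 genes tested were called higher and 1.88% lower. By range, Ccl5 was higher and Ccl11 lower in every MRL injured library than in every C57 injured library, as were 8.27% and 7.58% of the genes tested. The median log2 difference was 0.55 over the members and -0.06 over all genes tested. The sum of the 10 genes overlapped between the strains, with 496 to 1063 CPM in C57 injured and 561 to 1346 CPM in MRL injured tendon.

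**Figure D3:**
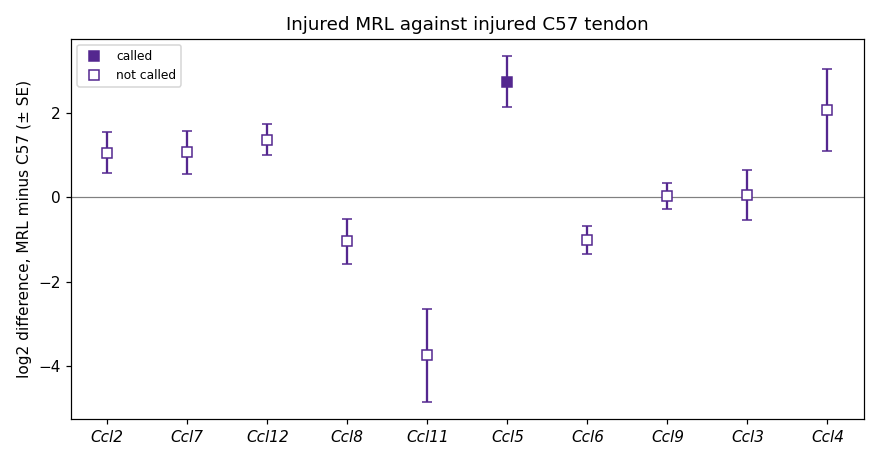
Log2 difference between MRL and C57 injured tendon (MRL minus C57) for each member, with its standard error, n = 4 libraries per strain; the filled point (Ccl5, 2.74) passed the test and open points did not. Ccl11 (-3.75), Ccl8 (-1.04) and Ccl6 (-1.01) lie below 0.

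Ccl5 averaged 19.1 ± 17.5 CPM in MRL injured and 2.77 ± 0.401 CPM in C57 injured tendon (SD, n = 4 each). The lowest MRL injured library, BI-274 with 4.72 CPM, was above the highest C57 injured library, BI-183 with 3.14 CPM. The log2 difference was 2.74 ± 0.61 (SE, edgeR adjusted p = 0.0355). The call was lost, with adjusted p between 0.0568 and 0.106, when BI-181, BI-183, BI-184, BI-185, BI-272 or BI-275 was left out, and was kept without BI-270 or BI-274; without BI-275 the difference was 1.95. In a fit of all 16 libraries its adjusted p was 0.170. The sum of 9 T cell markers (Cd3e, Cd3d, Cd3g, Cd2, Lck, Cd4, Cd8a, Cd28 and Zap70) ranged from 5.58 to 15.1 CPM in C57 injured and from 5.17 to 10.9 CPM in MRL injured tendon. Only Cd2 and Cd28 of the 9 passed the filter, neither was called between the injured strains, and the part of T cells in the Ccl5 difference was not tested.

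Ccl11 averaged 29.9 ± 25.7 CPM in C57 injured and 2.31 ± 1.83 CPM in MRL injured tendon (SD, n = 4 each). The ranges, 7.70 to 60.5 against 0 to 4.23 CPM, did not overlap. The log2 difference was -3.75 ± 1.11 (SE), with an edgeR adjusted p of 0.0957 that lay between 0.0671 and 0.255 under the other edgeR settings, and an adjusted p of 0.0404 in DESeq2. Markers of eosinophils, the cells Ccl11 acts on, were at or near 0, with a summed level over 7 markers of at most 1.51 CPM in any library and Prg2, Epx, Ear1 and Ear6 at 0 in all injured libraries.

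The other members had smaller differences that did not pass the test. Ccl12 was 1.37 ± 0.38 higher in MRL on the log2 scale (SE, edgeR adjusted p = 0.0761), with ranges that overlapped only through BI-184 and BI-274. It was called by DESeq2 (adjusted p = 0.0108) and without BI-184 (edgeR adjusted p = 0.0259). Ccl2 and Ccl7 had log2 differences of 1.05 ± 0.49 and 1.06 ± 0.52 (edgeR adjusted p = 0.248 and 0.272), with BI-184 inside the MRL range for both. Ccl6 had -1.01 ± 0.33 (edgeR adjusted p = 0.125) and Ccl8 -1.04 ± 0.53 (edgeR adjusted p = 0.294). Ccl9 had 0.03 ± 0.31 and Ccl3 0.06 ± 0.58, values whose sign turned to -0.10 and -0.08 when libraries were scaled by total counts, and Ccl4 had 2.08 ± 0.97 (edgeR adjusted p = 0.969, 0.966 and 0.253).

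Macrophage markers moved with this comparison. Of 14 markers, 4 were called lower and none higher in MRL injured than in C57 injured tendon (Csf1r, C1qa, C1qb and C1qc, with log2 differences of -1.39, -1.22, -2.12 and -1.79 and edgeR adjusted p of 0.0273, 0.0483, 0.0165 and 0.0423). Ly6c2, a gene of inflammatory monocytes, had the opposite sign (2.96 ± 1.12, SE, edgeR unadjusted p = 0.0248, adjusted p = 0.170). The summed level of the 14 was 1848 to 3096 CPM in C57 injured and 937 to 1743 CPM in MRL injured tendon, with no marker at 0 in either group. Of 9 endothelial markers 2 were called lower in MRL injured tendon, Pecam1 (-3.75) and Egfl7 (-3.04), with edgeR adjusted p of 0.0389 and 0.0248. The others were not called. The sum of the 9 was 131 to 200 CPM in C57 injured and 6.13 to 39.9 CPM in MRL injured tendon. Of the 9 tenocyte markers Scx was called higher (1.18, edgeR adjusted p = 0.0162). The part of these markers in the members' differences was not tested.

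In uninjured tendon 6 members passed the filter (Ccl2, Ccl6, Ccl7, Ccl8, Ccl9 and Ccl11) and none was called between the strains. The same was true of all 14055 genes tested, with 0% called higher and 0% lower by edgeR, 1106 genes at an unadjusted p under 0.05 and 101 called by DESeq2, none of them a member. Without C57 uninjured replicate 4 and MRL uninjured replicate 4, edgeR called 497 genes, again with no member among them. None of the 6 had an unadjusted p under 0.05. The log2 differences (MRL minus C57) ranged from -0.92 ± 1.49 for Ccl8 to 0.48 ± 1.33 for Ccl11 (SE, edgeR adjusted p = 0.894 and 0.941) and the standard error was above 1 for Ccl2, Ccl7, Ccl8 and Ccl11. Ccl9, with the smallest error, had 0.26 ± 0.32 (edgeR adjusted p = 0.854), and Ccl6 had -0.76 ± 0.44 (edgeR adjusted p = 0.691).

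A direct test of whether the injury response differed between strains, the strain by injury interaction over all 16 libraries, called none of the 10 members and 0% of 15947 genes. At an unadjusted p under 0.05 there were 1939 genes, among them the members Ccl5 and Ccl11. The interaction was 5.28 ± 1.64 for Ccl5 (log2, MRL response minus C57 response, SE; edgeR unadjusted p = 0.00537, adjusted p = 0.333) and -4.21 ± 1.82 for Ccl11 (edgeR unadjusted p = 0.0346, adjusted p = 0.384). DESeq2 called 212 genes, among them Ccl5 and no other member. For Ccl6 and Ccl9 it was -0.25 ± 0.55 and -0.22 ± 0.46 (edgeR adjusted p = 0.901 and 0.896). The 7 members called in MRL and 2 called in C57 are therefore counts within each strain, and a difference between the strains in response was not shown for any member by edgeR.

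Levels were also divided by the exon length of each gene, with the exons of all its annotated transcripts merged, to set members side by side. Which transcripts were in use was not measured, which limits the order and shares of members below. In C57 uninjured tendon the order of mean CPM per kb ran from Ccl6 (8.26 ± 3.38) and Ccl9 (7.35 ± 1.84) through Ccl2 (6.44 ± 5.80), Ccl7 (5.90 ± 5.62), Ccl8 (4.18 ± 4.09), Ccl11 (1.69 ± 0.921) and Ccl3 (1.33 ± 1.201) to Ccl5, Ccl12 and Ccl4, each below 0.7 (SD, n = 4). Every pair of neighbours in that order overlapped in range. The order of the leading members turned on C57 uninjured replicate 4, where Ccl2 and Ccl7 were at 0. In C57 uninjured replicates 1 to 3 Ccl2 had 5.07, 6.66 and 14.0 CPM per kb and Ccl7 had 3.52, 6.87 and 13.2. In the same libraries Ccl6 had 3.85, 7.54 and 11.6 and Ccl9 had 5.29, 9.49 and 8.13 CPM per kb. In MRL uninjured tendon Ccl9 led (8.95 ± 3.41 CPM per kb), followed by Ccl6 (5.02 ± 2.07) and Ccl7 (4.596 ± 4.41), and again no neighbours were apart.

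At 7 dpi Ccl2 had the highest mean in both strains, which in C57 rested on BI-184. There Ccl2 had 258 and Ccl6 142 CPM per kb, whereas in BI-181, BI-183 and BI-185 Ccl2 had 66.6, 94.8 and 60.6 and Ccl6 had 90.8, 119 and 80.3 CPM per kb. Ccl8 was the highest member in BI-183 and BI-185, at 158 and 118 CPM per kb. In C57 injured tendon the per-length means were 120 ± 93.4 CPM per kb for Ccl2, 108 ± 27.8 for Ccl6, 106 ± 86.9 for Ccl7, 92.8 ± 57.1 for Ccl8, 57.7 ± 19.8 for Ccl9, 27.6 ± 23.8 for Ccl11 and 20.7 ± 11.4 for Ccl12 (SD, n = 4), each overlapping the next. These 7 were apart from Ccl3 (3.00 ± 1.30) and Ccl5 (2.88 ± 0.418), and those from Ccl4 (0.590 ± 0.228). In MRL injured tendon Ccl2 (253 ± 126) and Ccl7 (224 ± 119) overlapped and were apart from Ccl9 (60.1 ± 23.9), Ccl6 (54.9 ± 24.2), Ccl12 (54.5 ± 16.01) and Ccl8 (45.7 ± 25.5), which overlapped. Ccl5 (19.9 ± 18.2) stood seventh there, and Ccl11 (2.14 ± 1.69) last.

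The make-up of the family followed these levels. Ccl2 and Ccl7 together took 27.9 to 58.5% of the summed CPM per kb of the 10 genes in the C57 injured libraries and 56.7 to 71.1% in the MRL injured libraries, with BI-184 the C57 library that reached into the MRL range. Ccl6 took 16.9 to 25.5% in C57 injured and 4.50 to 12.2% in MRL injured tendon, and Ccl12 took 2.18 to 4.99% and 6.28 to 11.1%. In C57 injured and MRL injured tendon in turn, Ccl5 took 0.353 to 0.843% and 1.04 to 3.99%, and Ccl9 took 9.94 to 11.9% and 7.19 to 9.56%. Ccl11 took 1.04 to 15.7% and 0 to 0.827%. The ranges of Ccl5, Ccl6, Ccl9, Ccl11 and Ccl12 did not overlap between the injured strains, and those of the other members did. By position, the cluster that holds Ccl2 took 39.1 to 55.5% in C57 uninjured and 61.0 to 72.2% in C57 injured tendon, and 21.9 to 52.8% in MRL uninjured and 76.7 to 84.8% in MRL injured tendon. The 39.1% was in C57 uninjured replicate 4, where Ccl2 and Ccl7 were at 0. These shares are descriptions, with no test, and a rise in 1 member lowers the share of the others.

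**Figure D4:**
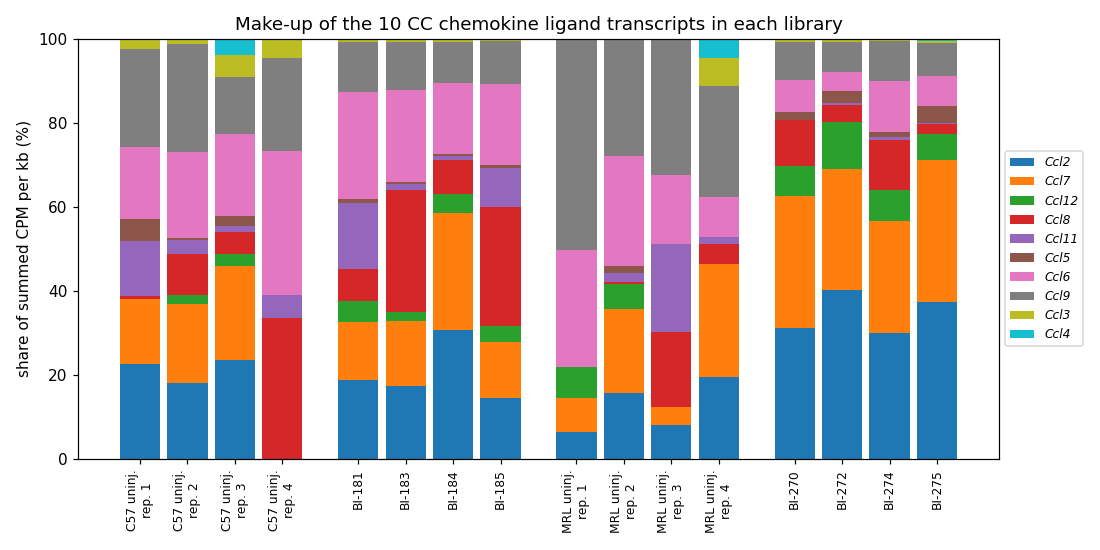
Share of each member in the summed CPM per kb of the 10 genes, in percent, 1 bar per library, grouped as C57 uninjured, C57 injured, MRL uninjured and MRL injured. Ccl2 and Ccl7 make up 56.7% or more of every MRL injured bar, and C57 uninjured replicate 4 holds neither.

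Members also varied together within groups. Over the 15 libraries other than C57 uninjured replicate 4, after subtraction of each group's mean from log2 CPM, Ccl2 and Ccl7 had a Pearson r of 0.944 and Ccl6 and Ccl9 of 0.737. Ccl9 also went with Ccl2 (0.751), Ccl7 (0.667) and Ccl8 (0.641). Ccl12 had an r of 0.0214 with Ccl9, 0.146 with Ccl2 and -0.25 with Ccl8. It had 0 to 12 counts in the uninjured libraries, so these values rest in part on deviations near the floor. The correlation of Ccl12 over the injured libraries alone was not computed. These 6 members had a median count of 50 or more, and the correlations are descriptions over libraries that share depth and tissue make-up.

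Among 10889 other genes with a mean of at least 5 CPM, those closest to each of the 6 by the same measure were as follows. For Ccl2 they were Lbr (0.929), Cxcl1 (0.914), a CXC chemokine that draws neutrophils, and Clec4e (0.911), a pattern receptor of macrophages. For Ccl7 they were Anln (0.931), Clec4e (0.912) and Cd14 (0.906), the co-receptor for bacterial lipopolysaccharide on monocytes. For Ccl8, Dapp1 (0.840) and Fuca2 (0.838) were among the 3. For Ccl9 they were Ptprc (0.927), which encodes the pan-leukocyte antigen CD45, Psmc3ip (0.889) and Specc1l (0.889). For Ccl6 they were Acot9 (0.854), Peli1 (0.847) and Clec4a2 (0.843), and for Ccl12 Ndufaf8 (0.864), Agtpbp1 (0.841) and Il1rn (0.837), which encodes the interleukin-1 receptor antagonist. The low uninjured counts of Ccl12 limit its correlations here too.

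The receptors of these ligands were measured in the same libraries. Ccr2, the receptor of Ccl2, Ccl7 and Ccl12, had 1.81, 3.43, 1.77 and 4.98 CPM in C57 uninjured replicates 1 to 4 and 65.1, 91.9, 178 and 58.6 CPM in the C57 injured libraries. It had 0, 0.577, 4.06 and 1.45 CPM in MRL uninjured replicates 1 to 4 and 221, 53.6, 53.0 and 124 CPM in the MRL injured libraries. The groups did not overlap in either strain, and Ccr2 rose by 4.97 ± 0.52 in C57 (log2 fold change, SE, edgeR adjusted p = 0.00816) and by 6.19 ± 0.97 in MRL (edgeR adjusted p = 0.00590). Between the injured strains the log2 difference was 0.17 ± 0.50 (edgeR adjusted p = 0.877).

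Ccr1, the receptor of Ccl6 and Ccl9, ranged from 6.96 to 33.0 CPM in C57 uninjured and 63.1 to 141 in C57 injured tendon, and from 3.84 to 16.7 in MRL uninjured and 38.6 to 75.7 in MRL injured tendon. It rose in MRL by 2.55 ± 0.41 (log2 fold change, SE, edgeR adjusted p = 0.00466), and the value in C57 was 2.10 ± 0.47 (edgeR adjusted p = 0.0703), and 1.81 (adjusted p = 0.0185) without C57 uninjured replicate 4. Ccr3, the receptor of Ccl11, stayed low, with 11 to 20 counts in the C57 injured libraries, 0, 9, 0 and 92 in the MRL injured libraries, and 0 in 7 of the 8 uninjured libraries.

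**Figure D5:**
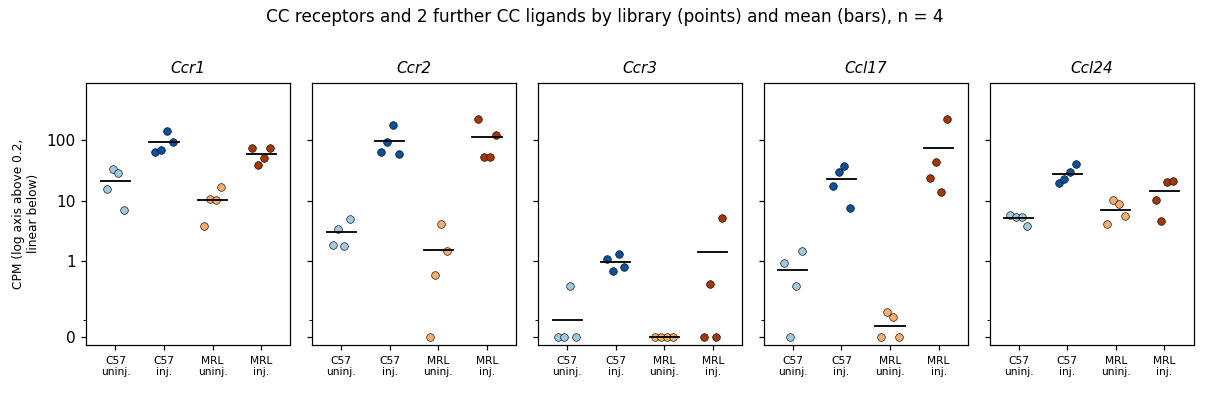
Level in CPM of the receptors Ccr1, Ccr2 and Ccr3 and of the CC ligands Ccl17 and Ccl24 in each library, on an axis that is logarithmic above 0.2 and linear below; points are libraries and bars are group means, n = 4 per group. Ccr1, Ccr2 and Ccl17 are higher in every injured library than in every uninjured library of the same strain.

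Of 11 CC receptors, 5 were tested in C57 and 3 in MRL tendon, with 1 and 2 called higher with injury, none lower, and none called between the injured strains. Their median log2 fold change was 2.10 in C57 and 2.55 in MRL. The 14 other CC ligands gave 4 tested genes in each strain and 1 call in each. In C57 this was Ccl24 (eotaxin-2, another Ccr3 ligand), which rose by 2.41 ± 0.30 (log2 fold change, SE, edgeR adjusted p = 0.0138) from 3.83 to 5.84 CPM to 19.2 to 40.4 CPM. Its value in MRL was 1.01 ± 0.50 (edgeR adjusted p = 0.217) and its difference between the injured strains -1.01 ± 0.45 (edgeR adjusted p = 0.234). In MRL the call was Ccl17, which draws Ccr4-bearing T cells. It had 0, 2, 2 and 0 counts in MRL uninjured replicates 1 to 4 and 573, 954, 315 and 3975 in the MRL injured libraries, with a log2 fold change of 9.98 ± 1.34 (edgeR adjusted p = 0.00325) that depends on the prior count. In C57 it was 4.96 ± 1.00 (edgeR adjusted p = 0.0556), and 5.64 (adjusted p = 0.0158) without C57 uninjured replicate 4. Ccl1, Ccl21a, Ccl21b, Ccl21c, Ccl26 and Ccl27b were at 0 in every library.

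None of the 4 atypical chemokine receptors, which take up chemokines without signalling through G proteins, was called in any comparison. Of the 12 genes of receptor signalling, none of 11 tested was called in C57 and 2 of 12 rose in MRL, Rac2, a leukocyte GTPase (2.76 ± 0.38, edgeR adjusted p = 0.00247), and Plcb2, a phospholipase of chemokine receptors (6.19 ± 1.198, edgeR adjusted p = 0.0105; 1 count in all MRL uninjured libraries together). Between the injured strains 1 was lower in MRL, Arrb1, which encodes beta-arrestin 1 (-1.32 ± 0.24, edgeR adjusted p = 0.0151). Of 15 genes of inducers of CC ligands and their mediators (cytokines, transcription factors and Nfkbia, which encodes an inhibitor of NF-kB), none of 11 tested was called in C57 and 2 of 11 rose in MRL, Il1b (5.66 ± 1.45, edgeR adjusted p = 0.0327) and Nfkb2 (1.09 ± 0.25, edgeR adjusted p = 0.0203). Il1b was at 0 in 3 of 4 MRL uninjured libraries and had 32.2 CPM in 1 C57 uninjured library, and Ifng was at 0 in every library. Without C57 uninjured replicate 4, Rac2 (1.70, edgeR adjusted p = 0.00945) and Plcb2 (8.08, edgeR adjusted p = 0.0239) were called higher in C57, and still none of the inducers and mediators. None of the genes of these 2 lists reached a call in uninjured tendon or in the interaction.

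Markers of the cells that make or follow these ligands moved with injury too. Of 14 macrophage markers, 13 were tested in each strain and 4 rose in C57, Cd68, C1qa, Mrc1 and Adgre1, by 2.56, 1.57, 2.28 and 2.01 on the log2 scale (edgeR adjusted p = 0.0121, 0.0138, 0.0152 and 0.0479). In MRL 5 rose, among them Cd68, Fcgr1, Itgam and Adgre1, by 1.83, 2.49, 1.23 and 1.67 (edgeR adjusted p = 0.00331, 0.0153, 0.0209 and 0.0265). Without C57 uninjured replicate 4, 9 of the 13 were called higher in C57, and none lower. The median over the markers tested was 1.71 in C57 and 0.65 in MRL. The summed level was 759 to 1077 CPM in C57 uninjured and 553 to 923 CPM in MRL uninjured tendon, in each strain below the injured range of that strain given above.

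Of the other lists in MRL tendon, the dendritic cell markers Itgax (8.48, edgeR adjusted p = 0.00285) and Cd209a (3.97, edgeR adjusted p = 0.0384), the T cell marker Cd2 (3.86, edgeR adjusted p = 0.0190), the tenocyte gene Thbs4 (1.31, edgeR adjusted p = 0.00679) and the muscle gene Tnni2 (2.51, edgeR adjusted p = 0.0421) rose. Of 3 dendritic cell and 2 T cell markers tested, Zbtb46 (-0.80, edgeR adjusted p = 0.333) and Cd28 (-0.54, edgeR adjusted p = 0.799) had the opposite sign without a call. The 3 muscle markers tested had a median of -0.14. All 12 muscle markers summed to 5.49 to 11.3 CPM in MRL uninjured and 5.94 to 13.8 CPM in MRL injured tendon. With all libraries, none of the neutrophil, mast cell, eosinophil, epidermal or endothelial markers was called with injury in either strain, and no eosinophil and only 2 neutrophil markers passed the filter in these comparisons. Without C57 uninjured replicate 4, the endothelial markers Emcn (1.67, edgeR adjusted p = 0.0212) and Tie1 (1.55, edgeR adjusted p = 0.0363) were called higher in C57, and none of the other 4 lists gave a call. The summed neutrophil markers were 0.777 to 141 CPM in C57 uninjured, 3.66 to 7.27 in C57 injured, 0.0663 to 2.89 in MRL uninjured and 4.10 to 29.4 CPM in MRL injured tendon. The 141 CPM were in C57 uninjured replicate 3, which also had the highest summed level of the members among the uninjured libraries. In the injured libraries of both strains, Ly6g and Ngp were at 0, and the summed mast cell markers were 11.02 to 291 CPM in C57 and 0.210 to 62.4 CPM in MRL injured tendon, against 8.68 to 20.4 and 3.25 to 65.8 CPM in uninjured tendon. The part of these cell types in the levels of the members was not tested.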

How the data were processed

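Total RNA of single flexor tendons was sequenced as single-end reads of 100 nt. Per the labels and the study's methods, the authors trimmed reads with Trimmomatic 0.36, mapped them with STAR 2.5.2b to GRCm38.p5 and, per the submitters' processing notes, used Subread 1.5.0p3 with featureCounts. The authors deposited a table of whole-number read counts for 49568 gene symbols in 16 libraries, without normalization. Which annotation was counted, and with which strand setting, is not given in the sources used here. The labels and the methods name different library kits, and reads of both strains were mapped to one C57-based genome. The part of either in the values was not tested.

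Counts were tested with edgeR 4.0.16 (R 4.3.3), with filterByExpr, TMM scaling and robust quasi-likelihood F-tests on the whole table, with Benjamini-Hochberg adjustment over all genes tested. Each comparison used only its own 8 libraries, and the interaction all 16. A gene was called when its adjusted p was under 0.05 and its log2 fold change was over 1 in size (the interaction at the adjusted p alone). The SE of a log2 fold change was its size divided by the square root of F. Levels are CPM with TMM-scaled library sizes, and correlations used log2 CPM with a prior count of 2. The tests were first run on simulated data with known changes. No 2 libraries had identical counts. P-values measure the spread between libraries, each from a different animal per the methods.

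Groups came from strain and time point in the labels. The members and the gene lists were chosen with earlier results of these data known, so list counts are descriptions. All 10 members are named. Of each list, genes that passed a comparison are named (at most 4 per list and comparison, by adjusted p), with Ccr1, Ccr2 and Ccr3, and for each member with a median count of at least 50 the 3 genes with the highest within-group correlation. Ccl24 in MRL and Ccl17 in C57 are given beside their calls in the other strain. Values of 1 receptor, 1 correlated gene and 1 sequence are not reported here, and the receptor was left out of the counts of its list. Gene models came from GENCODE M21 (GRCm38) and promoters from RefSeq. Alternatives were DESeq2 1.42.0, upper-quartile and total-count scaling, no filter on low counts, each library left out, libraries that stand apart left out, a fit of all 16 libraries and a replicate block. In this setting the libraries that stand apart were C57 uninjured replicate 4, MRL uninjured replicate 4 and BI-181, and BI-183 was kept. MRL uninjured replicate 4 had 49.0 CPM of epidermal and 7.87 CPM of muscle markers, inside the range of other libraries.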

Additional observations from a re-analysis of the deposited data

Results flagged for a closer look

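In 5 of 40 sets of 4 libraries (10 members in 4 groups), 1 library lay further from the others than Dixon's test of its gap over the group's range allows. Each of the 5 was an uninjured group at low counts. Chance flags about 1 in 20 sets of values without ties, a rate that does not hold for 4 of the 5, where the other 3 libraries were all at 0 and any count above 0 would stand out. Ccl11 had 9.07 CPM in MRL uninjured replicate 3 against 0 to 0.723 CPM in the other 3 of the group. The sign of the Ccl11 change in MRL tendon turned without this library, and also without BI-270. MRL uninjured replicate 4 had 2.01 CPM of Ccl3 and 1.21 CPM of Ccl4, with both at 0 in the other 3 libraries. C57 uninjured replicate 3 had 1.54 CPM of Ccl4 and MRL uninjured replicate 2 had 0.433 CPM of Ccl5, again with 0 in the other 3 libraries of the group.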

How the results depend on the processing

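In MRL tendon 6 of the 7 members (Ccl2, Ccl5, Ccl6, Ccl7, Ccl9 and Ccl12) were called under every alternative run, Ccl8 lost its call in 5 of them, and Ccl3 was called without MRL uninjured replicate 4. No member was called between the uninjured strains under any alternative, where the calls over all genes went from 0 to 101 with DESeq2 and to 497 without the libraries that stand apart. In C57 tendon the 2 calls became 7 with DESeq2, 3 with total counts (Ccl11 added), 7 with the libraries that stand apart left out and 4 in a fit of all 16 libraries, and ran from 2 to 7 with 1 library left out, 7 only without C57 uninjured replicate 4. Over all genes, the calls of that comparison went from 155 to 905 with DESeq2, to 867 without the libraries that stand apart and to between 10 and 750 with 1 library left out. Between the injured strains the 1 call became 3 with DESeq2 and 0 in the fit of all 16 libraries, and ran from 0 to 1 with 1 library left out; over all genes 502 calls became 1488 and 227. In the interaction DESeq2 called 1 member, and 212 genes in all against 0 by edgeR. The cause of these moves was not tested beyond the libraries named.

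Of 686 values for single members, 626 kept their direction and their side of the threshold, 23 gained and 12 lost a call, and 25 turned sign. With total counts, Ccl9 (-0.10) and Ccl3 (-0.077) turned between the injured strains, where this scaling moved the median of all genes from -0.06 to -0.20. In uninjured tendon Ccl8 turned to 0.082 without the libraries that stand apart. With 1 library left out, the log2 fold changes that turned ranged in the MRL injury comparison from -0.63 to 2.40 (Ccl11), and between the injured strains from -0.20 to 0.25 (Ccl9) and -0.33 to 0.35 (Ccl3). In uninjured tendon they ranged from -1.28 to 0.0040 (Ccl2), -1.18 to 0.40 (Ccl7), -2.63 to 0.0015 (Ccl8) and -2.07 to 0.91 (Ccl11), and in the interaction from -1.07 to 1.66 (Ccl8), -0.50 to 0.0064 (Ccl9), -0.52 to 0.00026 (Ccl6) and -3.24 to 7.81 (Ccl4).

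Uninjured libraries of the strains share replicate numbers but come from different animals, and the correlation of same-numbered libraries was -0.551, 0.218, -0.198 and -0.305. In a fit with replicate block, 0 members were called, as without it, and Ccl11 turned to -1.29. Depth limits Ccl3, Ccl4, Ccl5 and Ccl12 in uninjured tendon, where each library held 0 to 30 counts.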
